A study of Beta vulgaris with 12 samples.

Results

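Genes of raffinose family oligosaccharide and inositol synthesis were examined in roots of sugar beet (Beta vulgaris) seedlings. They were chosen by the gene description in the deposited expression table, which had to contain "galactinol", "stachyose", "inositol-3-phosphate synthase" or "inositol oxygenase", and 13 of 28320 entries met this rule. These were 3 galactinol synthases, 8 entries described as galactinol--sucrose galactosyltransferase or stachyose synthase, 1 inositol-3-phosphate synthase and 1 inositol oxygenase. The 8 entries are grouped as raffinose and stachyose synthases by description alone, and their activity was not tested. The study sequenced poly(A) RNA from roots of seedlings of a single cultivar, 4 weeks old at the start of treatment, in 4 groups of 3 libraries. Roots of S_7 and CK_7 were taken on day 7, and roots of S_1 and CK_1 on day 1. S groups received NaCl and Na2SO4 to 300 mM Na+ in Hoagland nutrient solution, and CK groups received the nutrient solution alone. The methods describe a gradual increase of Na+ to this level.

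Myo-inositol is made from glucose 6-phosphate, and inositol-3-phosphate synthase catalyses the first step. Galactinol synthase joins inositol to galactose from UDP-galactose, which commits the galactose to the raffinose family. Raffinose synthase, annotated as galactinol--sucrose galactosyltransferase, moves that galactose to sucrose, and stachyose synthase moves a further galactose to raffinose, each step releasing inositol. Inositol oxygenase instead opens the inositol ring to give glucuronate, a precursor of cell wall polysaccharides. Raffinose and galactinol are known to accumulate in leaves and roots of many plants under drought, cold and salinity, and raffinose is a known constituent of the sugar beet taproot.

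Values are FPKM, fragment numbers scaled to transcript length and to the reads of each library, so levels of different genes can be compared. Library totals were 382847 to 423530 FPKM, and 23688 to 24234 genes were above 0. The relative depth, estimated from the lowest values, was 0.907 to 1.27 times that of the first CK_1 library. Fold changes are differences of mean log2(FPKM + 1), given with their standard error (SE), and understate the change of genes with low FPKM. A gene is called when its unadjusted P in limma was under 0.05 and its log2 fold change passed 1 in either direction, the criteria of the study, and the Benjamini-Hochberg adjusted p over all tested genes is given beside it. Genes of the Casparian strip, which marks root endodermis, summed to 72.7 to 104 FPKM in S_7, 14.9 to 44.4 in CK_7, 15.5 to 80.9 in S_1 and 13.1 to 61.1 in CK_1, and 2 of 3 were called higher in S_7 than in CK_7. Chlorophyll a-b binding genes, markers of green tissue, summed to 7.03 to 14.8 FPKM in S_7, 8.21 to 19.5 in CK_7, 29.8 to 248 in S_1 and 35.5 to 116 in CK_1. Sieve element occlusion genes, markers of phloem, summed to 3.72 to 7.08 FPKM in S_7 and 7.33 to 9.93 in CK_7. On day 1 they summed to 3.12 to 8.63 FPKM in S_1 and 4.45 to 7.24 in CK_1. Neither of the 2 genes was called under salt on either day. The part of these cell types in the results was not tested. In bulk RNA, fewer cells of a type and less RNA per cell cannot be told apart.

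On day 7, inositol oxygenase was higher in S_7 than in CK_7, while inositol-3-phosphate synthase and the raffinose synthase homologue galactosyltransferase 6 were lower. These 3 of 13 members were called, 1 higher and 2 lower, where 2.70% of all 27411 tested genes were called higher and 2.38% lower. Only inositol oxygenase also had an adjusted p under 0.05, which together with the fold criterion held for 1.30% of all genes. In limma 6 of 13 members had an unadjusted P under 0.05, against 18.9% of all genes. The S_7 and CK_7 libraries did not overlap for 8 of 13 members, 3 higher and 5 lower, against 15.5% higher and 10.9% lower over all genes. A higher one of these, LOC104894323, lay near 0, at 0.0359 to 0.0946 FPKM in S_7 and at most 0.0346 FPKM in CK_7. The median log2 fold change was -0.31 over the members and 0.02 over all tested genes.

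On day 1, limma called 0 of 13 members, where 3.44% of 27073 tested genes were called higher in S_1 and 2.55% lower. With adjusted p in place of P the count was again 0, against 0.691% of all genes. A linear model without variance moderation also called 0. Limma gave an unadjusted P under 0.05 for 1 member, galactinol synthase 1, against 15.6% of all genes. The S_1 and CK_1 libraries did not overlap for 2 members with higher and 1 with lower values, against 11.2% higher and 10.6% lower over all genes. The median log2 fold change was 0.19 over the members and 0.00087 over all tested genes.

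**Figure D1:**
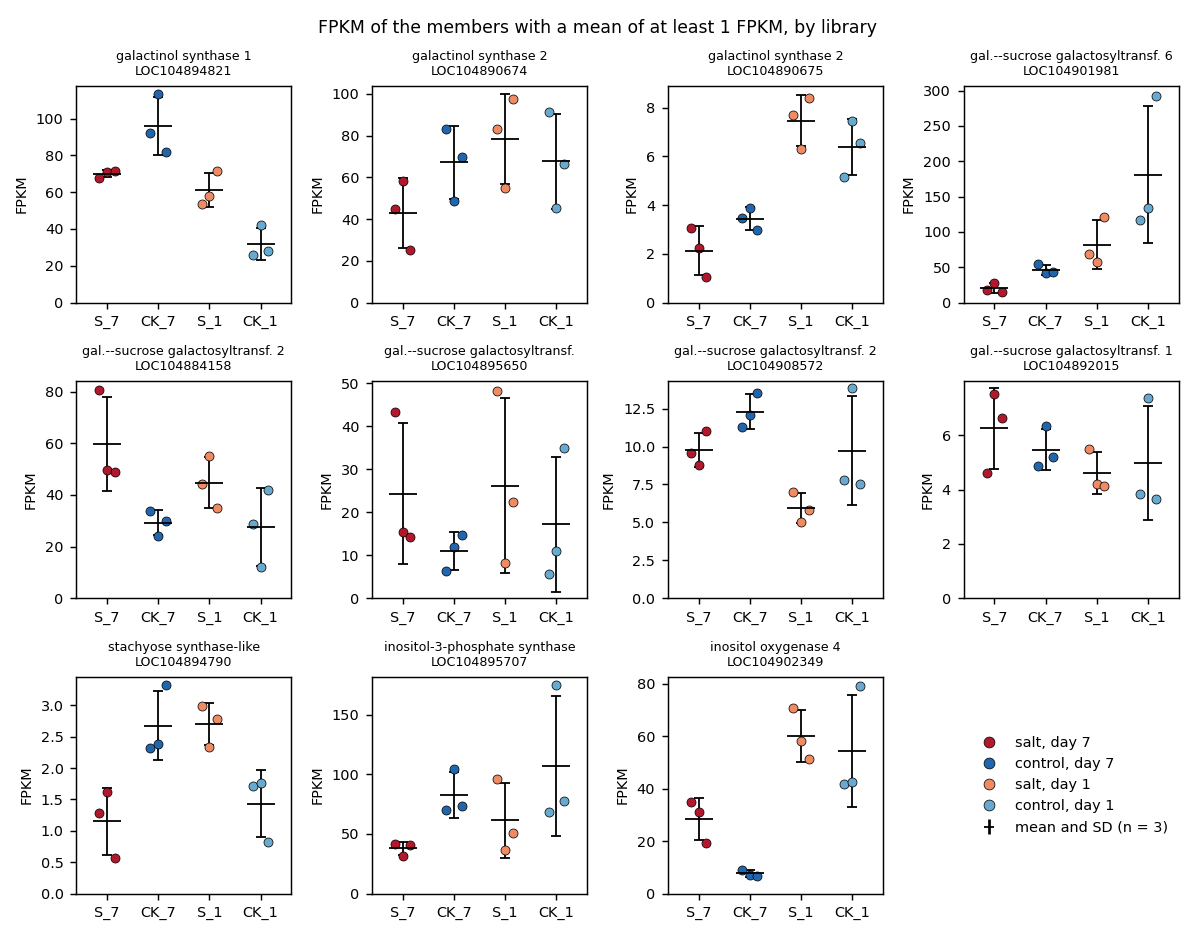
FPKM of the 11 members with a mean of at least 1 FPKM, with the groups along the horizontal axis, a point for each library, and a line and bar for the group mean and SD (n = 3). Inositol oxygenase was at 19.2 to 34.8 FPKM in S_7 and 6.82 to 9.11 FPKM in CK_7, while galactosyltransferase 6 was at 14.4 to 27.8 FPKM in S_7 and 42.2 to 54.9 FPKM in CK_7.

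Inositol-3-phosphate synthase (LOC104895707) is the only member of its role, and it had the second place among members by mean FPKM over all libraries. Its level was 41.3, 31.5 and 41.0 FPKM in S_7, against 70.0, 105 and 73.6 FPKM in CK_7. Every S_7 library lay below every CK_7 library. Salt against CK gave a log2 fold change of -1.09 (SE 0.20, limma adjusted p = 0.0711). It fell short of the fold criterion without the second CK_7 library (-0.91) or without the second S_7 library (-0.97).

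On day 1 the synthase was at 96.4, 36.7 and 50.8 FPKM in S_1, against 68.4, 175 and 77.8 FPKM in CK_1. The groups overlapped, through the first S_1 library, which was the highest of its group. The log2 fold change was -0.78 (SE 0.50, limma adjusted p = 0.522). The salt effects of day 7 and day 1 differed by -0.31 on the log2 scale, and this difference was not called.

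Inositol oxygenase 4 (LOC104902349) cleaves inositol and so draws on the same pool as galactinol synthesis. Its level was 34.8, 31.1 and 19.2 FPKM in S_7, against 9.11, 7.16 and 6.82 FPKM in CK_7. The lowest S_7 library was above the highest CK_7 library. The log2 fold change was 1.72 (SE 0.25, limma adjusted p = 0.0443). The call at unadjusted P held under all 13 alternatives tried for it, with adjusted p from 0.0162 to 0.163, of which 6 were under 0.05.

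On day 1 the oxygenase was higher in both groups, at 70.7, 58.3 and 51.1 FPKM in S_1 and 41.8, 42.5 and 79.0 FPKM in CK_1. The groups overlapped because the third CK_1 library had the highest value of all. Its log2 fold change was 0.19 (limma adjusted p = 0.796). The salt effect was larger on day 7 than on day 1 by 1.53 on the log2 scale (SE 0.40), with an adjusted p of 0.104 in limma, so the difference between the days was not called.

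The ratio of oxygenase to synthase FPKM, a measure chosen after the values were seen, was 0.843, 0.987 and 0.469 in S_7 and 0.130, 0.0684 and 0.0927 in CK_7. On day 1 it was 0.734, 1.59 and 1.01 in S_1 and 0.611, 0.244 and 1.02 in CK_1. The day 1 groups overlapped and the day 7 groups were apart. The day 7 separation follows from the values above and adds no evidence. Every S_7 library lay above CK_7 for the oxygenase and below CK_7 for the synthase.

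**Figure D2:**
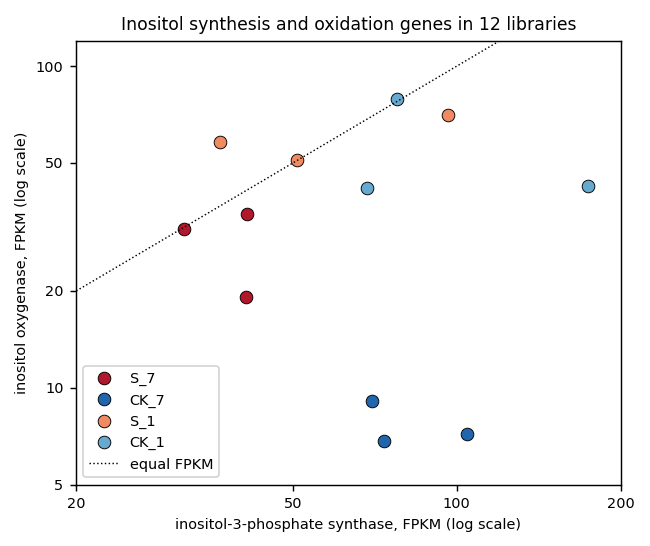
Inositol-3-phosphate synthase against inositol oxygenase in FPKM, on log axes, with a point for each library coloured by group. The CK_7 libraries have a ratio of oxygenase to synthase of 0.0684 to 0.130 and lie apart from the S_7 libraries at 0.469 to 0.987.

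Galactinol synthase 1 (LOC104894821) makes galactinol, the galactose donor of the pathway, and in Arabidopsis galactinol synthases are known to respond to drought, heat and salt. Its level was 67.9, 70.7 and 71.3 FPKM in S_7, against 92.4, 113 and 82.0 FPKM in CK_7. The S_7 libraries were all lower, by -0.44 on the log2 scale (SE 0.14, limma adjusted p = 0.199), which is under the fold criterion.

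On day 1 the same gene was at 53.8, 57.8 and 71.7 FPKM in S_1, against 25.7, 42.0 and 28.1 FPKM in CK_1. The S_1 libraries were all higher, by 0.93 on the log2 scale (SE 0.23, limma adjusted p = 0.145), again under the fold criterion. It was called without the second CK_1 library (1.14) or the first S_1 library (1.02). The salt effect on day 7 minus that on day 1 was -1.37 (SE 0.28, limma adjusted p = 0.0432). It was the only one of 13 members called in this comparison, where 0.936% of 28320 genes were called in the same direction and 0.826% in the other. The call was lost when any of 11 of the 12 libraries was left out, with adjusted p from 0.0604 to 0.0959, and was kept only without the second CK_1 library, at 0.0143. It was also lost without variance moderation (adjusted p = 0.0653).

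A pair of entries is described as galactinol synthase 2, LOC104890674 and LOC104890675, with 1 gene between them in the RefSeq order of the EL10.2 assembly. Reads of such close copies may be shared out unevenly, so their separate levels are uncertain. LOC104890674 was at 44.8, 58.4 and 25.3 FPKM in S_7 and 83.1, 48.6 and 69.7 FPKM in CK_7, and at 83.4, 54.9 and 97.3 FPKM in S_1 and 91.1, 45.4 and 66.3 FPKM in CK_1. The groups overlapped on both days, and the log2 fold changes were -0.68 on day 7 and 0.23 on day 1, neither called. LOC104890675 was at 3.06, 2.25 and 1.05 FPKM in S_7 and 3.48, 3.89 and 2.97 FPKM in CK_7, and at 7.69, 6.31 and 8.39 FPKM in S_1 and 5.15, 7.44 and 6.53 FPKM in CK_1. It was the lower copy in every library, and the salt comparisons did not call it on either day.

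The 3 galactinol synthases together averaged 115 ± 16.9 FPKM in S_7 and 166 ± 12.1 FPKM in CK_7 (SD, n = 3 each). On day 1 the sum was 147 ± 29.2 FPKM in S_1 and 106 ± 14.2 FPKM in CK_1 (SD, n = 3 each). Galactinol synthase 1 made up 61.8% of the sum in S_7 (53.8 to 73.0 over libraries) and 57.7% in CK_7 (51.6 to 68.4). On day 1 it made up 42.0% in S_1 (37.1 to 48.6) and 31.1% in CK_1 (21.1 to 44.3). The salt and CK shares overlapped on both days.

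The entry described as probable galactinol--sucrose galactosyltransferase 6 (LOC104901981) had the highest FPKM of all members when averaged over the 12 libraries, carried by its day 1 levels, and its Arabidopsis namesake is known as a dark-inducible gene. Its mean was 82.1 FPKM in S_1 and 181 FPKM in CK_1, whereas in S_7 its mean was below that of LOC104884158 (59.8 FPKM) of the same role. The S_7 mean of LOC104895650 (24.3 FPKM), also of this role, was higher too, through its first library at 43.2 FPKM. By S_7 median, galactosyltransferase 6 was above LOC104895650 (17.8 against 15.5 FPKM). Its level was 17.8, 27.8 and 14.4 FPKM in S_7, against 54.9, 42.2 and 42.8 FPKM in CK_7. All S_7 libraries were below all CK_7 libraries. On the log2 scale the difference was -1.22 (SE 0.26, limma adjusted p = 0.0917). The call at unadjusted P held under all 13 alternatives tried for it, with adjusted p from 0.0577 to 0.248, of which 0 were under 0.05.

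On day 1 galactosyltransferase 6 was at 68.2, 56.9 and 121 FPKM in S_1, against 117, 133 and 293 FPKM in CK_1. The third S_1 library overlapped the CK_1 range. The log2 fold change was -1.08 (SE 0.46, limma adjusted p = 0.337), past the fold criterion but with an unadjusted limma P of 0.0572. It was called with all 12 libraries in 1 fit, without the first CK_1 library (-1.33) and without the third S_1 library (-1.40), and was -0.68 and not called without the third CK_1 library.

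LOC104884158 is described as a galactinol--sucrose galactosyltransferase 2, whose Arabidopsis namesake SIP2 is known to break down raffinose as an alkaline alpha-galactosidase. Its level was 80.7, 49.8 and 48.7 FPKM in S_7, against 33.8, 24.1 and 30.0 FPKM in CK_7. All S_7 libraries were higher, by 0.98 on the log2 scale (SE 0.24, limma adjusted p = 0.121), just under the fold criterion. It passed the criteria with the ratio of mean FPKM (1.03), without the first (1.08) or the third (1.00) CK_7 library and without the second (1.09) or the third (1.10) S_7 library. On day 1 the level was 44.3, 55.1 and 35.0 FPKM in S_1 and 28.6, 12.1 and 42.0 FPKM in CK_1, which overlapped. The day 1 log2 fold change was 0.82 (limma adjusted p = 0.459), and it was 0.34 without the second CK_1 library and 1.20, then called, without the third.

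Within the 8 raffinose and stachyose synthase entries, these genes took different shares of the summed FPKM. Galactosyltransferase 6 held 17.1% in S_7 (11.3 to 25.0 over libraries) and 43.3% in CK_7 (39.0 to 48.4), and 48.4% in S_1 (38.7 to 63.3) and 74.0% in CK_1 (71.1 to 76.7). LOC104884158 held 49.1% in S_7 (44.8 to 51.3) and 27.2% in CK_7 (24.3 to 29.8), and 28.4% in S_1 (18.3 to 41.8) and 11.7% in CK_1 (6.71 to 17.4). For both genes the salt and CK shares did not overlap on either day, and since shares sum to a whole, they are not separate measurements. The summed FPKM of the 8 entries was 121 ± 32.1 in S_7 and 107 ± 7.45 in CK_7, and 167 ± 30.9 in S_1 and 242 ± 121 in CK_1 (SD, n = 3 each).

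**Figure D3:**
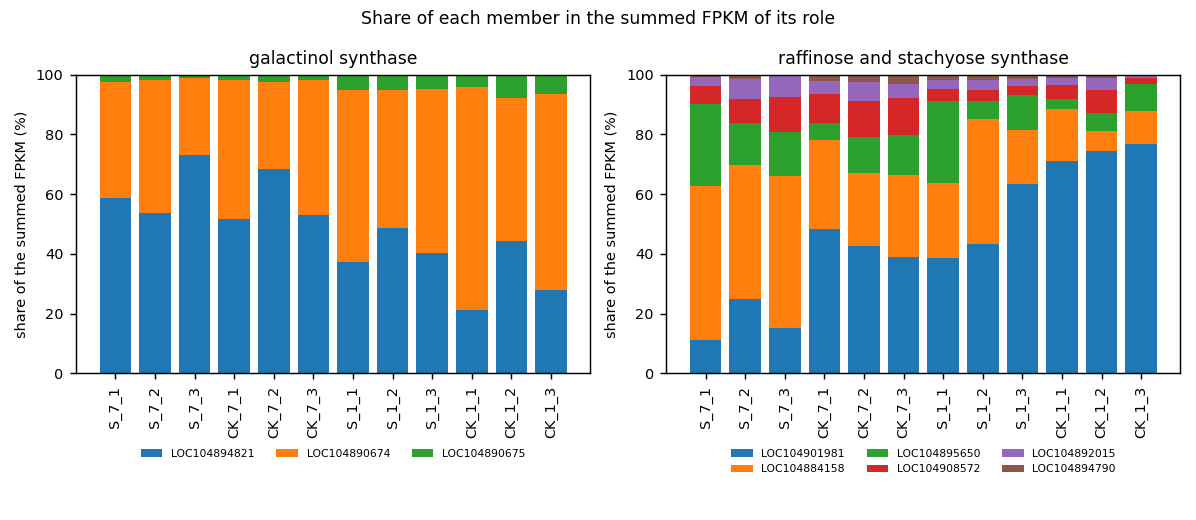
Share of each gene, in percent, in the summed FPKM of its role, by library. Galactosyltransferase 6 takes 11.3 to 25.0% of the raffinose and stachyose synthase sum in S_7 and 39.0 to 48.4% in CK_7, and LOC104884158 takes 44.8 to 51.3% in S_7 and 24.3 to 29.8% in CK_7.

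The other raffinose and stachyose synthase entries were not called under salt on either day. LOC104895650, a galactosyltransferase without a number in its description, varied widely between replicates, at 43.2, 15.5 and 14.1 FPKM in S_7 and 6.24, 11.9 and 14.7 FPKM in CK_7, and 48.1, 8.06 and 22.4 FPKM in S_1 and 5.54, 11.0 and 35.0 FPKM in CK_1. These groups overlapped on both days. LOC104908572, also described as number 2, was at 8.76 to 11.0 FPKM in S_7 and 11.3 to 13.5 FPKM in CK_7, and at 5.04 to 6.99 FPKM in S_1 and 7.51 to 13.9 FPKM in CK_1. It was lower in every salt library than in every CK library of the same day, by -0.31 on day 7 and -0.58 on day 1 on the log2 scale. LOC104892015, described as number 1, stayed between 3.66 and 7.52 FPKM in all libraries.

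A pair of entries is described as stachyose synthase or stachyose synthase-like, LOC104894856 and LOC104894790, with 1 gene between them in the RefSeq order. LOC104894790 was at 1.28, 1.61 and 0.562 FPKM in S_7 and 2.33, 2.39 and 3.32 FPKM in CK_7, and at 2.98, 2.33 and 2.79 FPKM in S_1 and 1.72, 1.77 and 0.824 FPKM in CK_1. The S_7 libraries were all below the CK_7 libraries, while the S_1 libraries were all above the CK_1 libraries. The log2 fold changes were -0.80 and 0.63 (limma adjusted p = 0.203 and 0.347), and their difference of -1.42 (SE 0.36) had an adjusted p of 0.0905, so none of these was called. The day 7 difference was past the criteria with a pseudocount of 0.1 (-1.24) or the ratio of mean FPKM (-1.22). LOC104894856 reached at most 0.101 FPKM and LOC104894323, a further galactosyltransferase, at most 0.164 FPKM, and both were listed at 0 in some libraries.

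**Figure D4:**
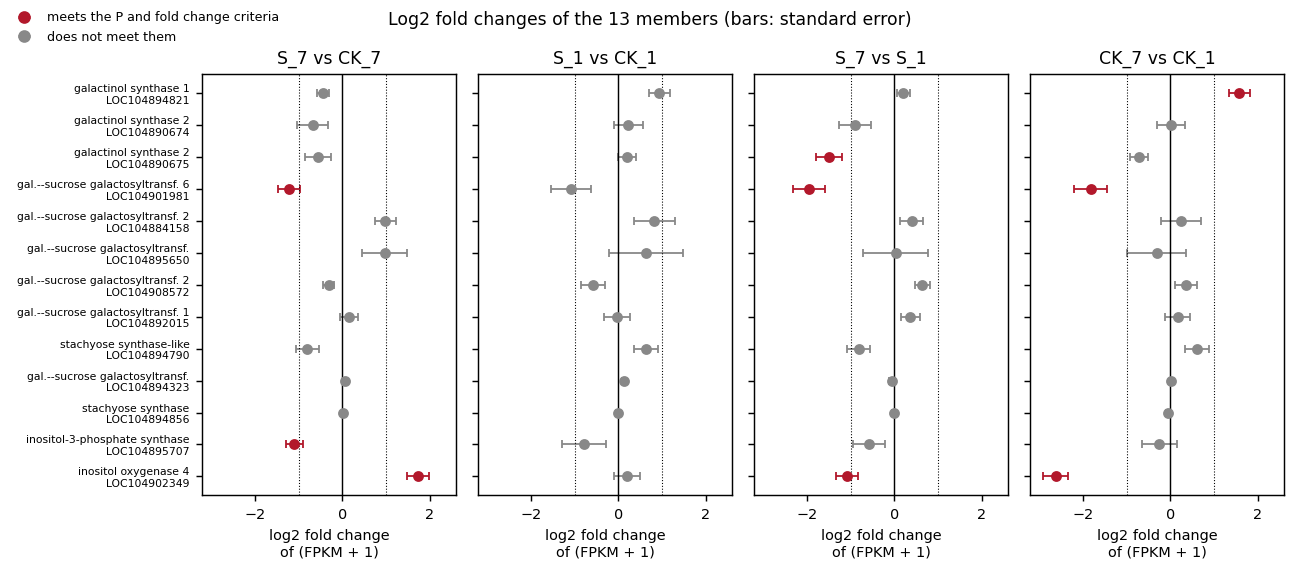
Log2 fold changes of FPKM + 1 with SE for the 13 members in 4 comparisons, where red points meet the P and fold change criteria and dotted lines mark the fold criterion. On day 7 inositol oxygenase is at 1.72, inositol-3-phosphate synthase at -1.09 and galactosyltransferase 6 at -1.22, and on day 1 no member is marked.

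The day comparisons give the background of change over the week with and without salt. The median gene of at least 1 mean FPKM was higher by 0.21 in S_7 than in S_1 and by 0.16 in CK_7 than in CK_1 on the log2 scale, so the member changes are to be read against these shifts. In S_7 against S_1, 3 of 13 members were called lower and none higher, where 2.66% of all genes were called lower and 4.11% higher. With adjusted p in place of P limma called 0 members, against 2.01% of all genes. An unadjusted P under 0.05 in limma held for 5 members, against 23.4% of all genes. The libraries did not overlap for 1 member higher and 4 lower in S_7, against 22.6% higher and 8.01% lower over all genes. With median ratio scaling the calls over all genes were 639 higher and 1088 lower, against 1127 higher and 730 lower as deposited. In CK_7 against CK_1, 1 member was called higher and 2 lower, where 6.85% of all genes were called higher and 3.40% lower. All 3 also had an adjusted p under 0.05, against 5.63% of all genes. In limma 4 members had an unadjusted P under 0.05 there, against 25.7% of all genes. The libraries did not overlap for 2 members higher and 3 lower in CK_7, against 21.1% higher and 11.5% lower over all genes. Scaling gave 1396 higher and 1205 lower genes there, against 1877 higher and 931 lower as deposited.

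Galactosyltransferase 6 fell by 1.96 on the log2 scale in S_7 against S_1 (SE 0.36, limma adjusted p = 0.0589) and fell by 1.82 in CK_7 against CK_1 (SE 0.38, adjusted p = 0.0447). Inositol oxygenase 4 fell by 1.08 in S_7 against S_1 (SE 0.26, limma adjusted p = 0.0842) and fell by 2.62 in CK_7 against CK_1 (SE 0.28, adjusted p = 0.0129). The first of these oxygenase calls was lost without the first S_1 library (-0.96) or the third S_7 library (-0.84). The oxygenase mean of 28.4 FPKM in S_7 was above CK_7 (7.70 FPKM) but below S_1 (60.0 FPKM) and CK_1 (54.4 FPKM). Galactinol synthase 1 rose by 1.57 in CK_7 against CK_1 (SE 0.23, limma adjusted p = 0.0221), and was 0.20 higher in S_7 than in S_1, which was not called. The galactinol synthase 2 copy LOC104890675 fell by 1.49 in S_7 against S_1 (SE 0.30, limma adjusted p = 0.0656). These calls held with median ratio scaling, which also called LOC104890674 lower in S_7 than in S_1 (-1.17). Of the 13 green tissue genes, 8 were called lower in S_7 than in S_1 and 6 in CK_7 than in CK_1, and their part in these results was not tested.

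Genes next to these steps were taken from 8 lists of the inositol and galactose routes, with 31 genes in all. On day 7, limma called 1 of 30 tested genes higher in S_7 and 0 lower, beside 2.70% and 2.38% of all genes. Of the 30, 5 had an unadjusted P under 0.05, beside 18.9% of all genes. On day 1, 3 of 31 were called higher in S_1 and 1 lower, beside 3.44% and 2.55% of all genes. The 3 alpha-galactosidases, which remove galactose from raffinose, were not called on either day. An inositol-tetrakisphosphate kinase of phytate synthesis, LOC104887992, was at 4.95, 2.41 and 4.87 FPKM in S_7 and 1.23, 0.414 and 0.243 FPKM in CK_7, a log2 fold change of 1.64 (limma adjusted p = 0.0917).

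On day 1 another entry of that kinase family, LOC104897568, fell to 19.6, 37.0 and 17.1 FPKM in S_1, against 157, 134 and 102 FPKM in CK_1. The log2 fold change was -2.43 (limma adjusted p = 0.0504), and the groups were far apart. Inositol transporter 1 (LOC104888510), which carries inositol across membranes, was at 9.93, 5.97 and 6.60 FPKM in S_1 and 1.24, 1.46 and 3.26 FPKM in CK_1, a log2 fold change of 1.54 (limma adjusted p = 0.121). Another entry of the same description, LOC104888509, was at 2.19, 3.17 and 2.25 FPKM in S_1 and 1.93, 4.18 and 2.42 FPKM in CK_1. Its log2 fold change was -0.09 (limma adjusted p = 0.915). UDP-glucose 6-dehydrogenase 1 (LOC104893967), which makes UDP-glucuronate without inositol, rose by 2.26 (limma adjusted p = 0.129). LOC104902705, of the same description, had a higher mean over all libraries (44.6 against 12.8 FPKM). Its day 1 groups overlapped, with a log2 fold change of 0.55 (limma adjusted p = 0.571). UDP-glucose 6-dehydrogenase 5 (LOC104899685) was at -0.05, and neither of these was called. A UDP-glucose 4-epimerase (LOC104892143), which makes UDP-galactose, rose by 1.49 (limma adjusted p = 0.297). The epimerase was at 70.5, 77.3 and 79.3 FPKM in S_1 and 42.7, 9.73 and 42.6 FPKM in CK_1, where the second library was the lowest. Without that library the value was 0.81 and under the fold criterion, and without any of the 3 S_1 libraries it was not past the P criterion, an alternative added after the values were seen. The other neighbour genes called under salt stayed called with each library left out. Another entry described as an epimerase, LOC104892324, was lower, at 102, 48.4 and 87.9 FPKM in S_1 and 103, 145 and 164 FPKM in CK_1. Its log2 fold change was -0.82 (limma adjusted p = 0.335), not called. The 3 genes of UDP-galactose supply summed to 204 ± 28.7 FPKM in S_1 and 216 ± 30.8 FPKM in CK_1 (SD).

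The genes whose FPKM followed a member most closely over the 12 libraries are given as a description, since the libraries share day, treatment and depth. For inositol oxygenase 4 these were asparagine synthetase 1 (LOC104899932, Pearson's r = 0.965), glutamate dehydrogenase B (LOC104888710, r = 0.961) and a probable uridine nucleosidase 1 (LOC104898389, r = 0.958). For galactinol synthase 1 they were a stress-associated endoplasmic reticulum protein (LOC104908020, r = 0.972), UDP-N-acetylglucosamine diphosphorylase 1 (LOC104898351, r = 0.962) and a mitochondrial heat shock 70 kDa-like protein (LOC104897806, r = 0.959). Galactosyltransferase 6 was closest to a serine/threonine-protein kinase, STY46-like (LOC104895619, r = 0.944), and inositol-3-phosphate synthase to an uncharacterized gene (LOC104883756, r = 0.938).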

How the data were processed

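Root RNA of 12 libraries was sequenced, 3 biological replicates in each of S_7, CK_7, S_1 and CK_1. The authors aligned reads with HISAT2 (2.0), assembled transcripts with StringTie (1.3.0) and deposited FPKM values, per the labels and the methods, already divided by transcript length and library reads. The labels also list Bowtie and a mouse genome build, whose role is not given and which the methods do not name. Read counts were not used here, and FPKM do not keep the depth, which was estimated relative to the first CK_1 library from the spacing of low values. Groups came from the labels, and 0 columns were left out.

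Each comparison was fitted with limma (3.58.1, R 4.3.3) with an intensity trend on log2(FPKM + 1), a pseudocount of 1, over the 6 libraries of the groups compared, for genes above 0 in any of these. The salt by day difference was fitted over all 12 libraries and called at an adjusted p under 0.05. Tests were two-sided. The fits were tested on simulated data. With 3 against 3 libraries, an exact permutation test cannot go below 0.1, so none was used.

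All members are accounted for. Library values are given for members called in any comparison and for the most abundant member of each role, and other members with library values were added after their values were seen. Pathway neighbours are named where called under salt, and other entries of a like description were added after their values were seen. The members and lists were chosen with earlier results of these data known. A phosphatidylinositol 3-kinase that matched the text of the phytate list was left out after the match was seen. Xylem markers matched 0 genes. The sequence features planned for the members were not analysed here. Alternatives were a pseudocount of 0.1, a mean FPKM of at least 1, median ratio scaling, the ratio of mean FPKM and adjusted p. Others were a linear model without moderation, 1 fit of all libraries, a replicate block and leaving out each library. The last was added for the neighbours called under salt after their values were seen.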

Additional observations from a re-analysis of the deposited data

Results flagged for a closer look

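For a pair of members, every salt library lay on 1 side of CK on day 7 and on the other side on day 1, although neither gene was called on either day. Over all genes, 10.9% were apart and lower under salt on day 7, and 11.2% apart and higher on day 1. The share of genes with both was not counted. For galactinol synthase 1 (LOC104894821) the S_7 libraries were all below CK_7 and the S_1 libraries all above CK_1, and the effect on day 7 minus that on day 1 was -1.37 on the log2 scale (limma adjusted p = 0.0432). This call was lost in 11 of 12 fits with a library left out (adjusted p from 0.0604 to 0.0959), without variance moderation (0.0653) and with the replicate block (0.0720). For the stachyose synthase-like LOC104894790 the libraries lay the same way, and the difference was -1.42, which was not past the threshold (limma adjusted p = 0.0905).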

How the results depend on the processing

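Over the named members, 350 alternative values of 26 fold changes gave 319 on the same side of the criteria, 17 no longer past them, 14 newly past them and 0 reversed. These values leave out the switch between unadjusted and adjusted p. They include fold changes that were not called, for which the same side means still not called. Members called in S_7 against CK_7 numbered 3, and 1 with adjusted p, 5 with the ratio of mean FPKM and 2 to 4 when a library was left out. In S_1 against CK_1 there were 0, and 1 with all libraries in 1 fit, 1 with the replicate block (galactosyltransferase 6 in both) and 0 to 1 with a library left out. In S_7 against S_1 there were 3, and 0 with adjusted p and 2 to 4 with a library left out. In CK_7 against CK_1 there were 3 under every alternative. The salt by day comparison called 1 member, and 3 at unadjusted P, where 14.7% of all genes passed. It called 0 without moderation, 0 with the replicate block and 0 to 1 with a library left out.

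All genes called in S_7 against CK_7 numbered 1392, and 355 with adjusted p, 2704 with a pseudocount of 0.1, 2901 with the ratio of means and 1219 to 1587 with a library left out. In S_1 against CK_1 these were 1621, 187, 3041, 3132 and 1488 to 1932. In S_7 against S_1 they were 1857, 552, 3703, 3942 and 1794 to 2102, and in CK_7 against CK_1 2808, 1544, 4918, 5120 and 2509 to 3560. The salt by day comparison called 499 genes, 4171 at unadjusted P, 230 with the replicate block and 273 to 565 with a library left out.

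Libraries with the same replicate number did not deviate together, with correlations from -0.0938 to 0.102 over 12 pairs, of which 4 were best with their own number (all 3 of CK_7 with CK_1), so the numbers do not pair the samples. The replicate block called 1301 genes in S_7 against CK_7 and 1601 in S_1 against CK_1. The 2 members with a mean under 1 FPKM were listed at 0 in some libraries, so no change is read from them. The level that this depth can resolve was not tested.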
